A study of Mus musculus with 20 samples.

Results

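The nuclear genes of the mitochondrial respiratory chain were followed in mouse macrophages loaded with cholesterol crystals, treated with a cyclodextrin, or both. Members were all probes of the bead signal data with 1 annotated symbol that starts with Nduf, Uqcr, Cox4 to Cox8 or Atp5, or that is Sdha, Sdhb, Sdhc or Sdhd. This gave 87 genes on 135 probes, out of 19057 genes on 34885 probes with 1 symbol. Of these, 79 members and 10018 genes in all were tested, because at least 1 of their probes was detected (detection p below 0.05) on at least 5 of 20 arrays. Complex I held 43 members (41 tested), complex II 4 (3), complex III 7 (6), complex IV 17 (13) and complex V 16 (16). The 8 members with no such probe were Ndufs1, Ndufaf6, Sdha, Uqcrfs1, Cox4i2, Cox7b2, Cox8b and Cox8c. Their probes were each detected on 0 or 1 arrays, and nothing is said of these genes below.

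RNA came from macrophages differentiated from C57BL/6 bone marrow over 6 days, with 40 ng/ml of the growth factor M-CSF and 10% fetal calf serum. The groups had 5 arrays each. CD-cc cells received crystals (200 µg per 1000000 cells, 3 h) and then 10 mM hydroxypropyl-beta-cyclodextrin for 6 h, cc cells received the crystals, CD cells received the cyclodextrin for 6 h, and con cells received neither. Cyclodextrin is a ring of sugars that holds cholesterol in its core. Donor mice are labelled as 2 to 5 months old for CD-cc, cc and CD cells but as 10 to 15 months old for con cells. Treatment and labelled age cannot be told apart in any comparison with con cells. The sources used here do not say how long cc and con cells stood while the others were in cyclodextrin. The design text speaks of mice without liver X receptors and wild-type littermates, but the labels give no genotype. They also do not say whether the arrays of a group came from separate animals or cultures, so p-values measure the spread between these arrays, which may be technical.

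The respiratory chain sits in the inner mitochondrial membrane. Complex I takes electrons from NADH and complex II, which is also the citric acid cycle enzyme succinate dehydrogenase, takes them from succinate. Complex III passes them to cytochrome c, complex IV hands them to oxygen, and complex V, the ATP synthase, uses the proton gradient that results. Complexes I, III, IV and V also have subunits encoded in mitochondrial DNA. No symbol of that kind was on the annotation, so only nuclear genes are described. In macrophages the chain is known to change its activity with inflammatory activation. Promoters of its nuclear genes are known for sites of the factors NRF1, GABP (an ETS factor) and YY1.

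The promoter windows of 4 members that changed with crystals or with both treatments are shown, since the factors named bind such regions. Of the other called members, Ndufa6 and Cox7a2 have a window that holds none of the motifs searched and is not shown, so 3 of the 6 called members with a window hold a motif. The share with any motif among all members with a window is not given here, so this count shows no excess. Cox6a2, Uqcrq, Ndufa2 and Atp5mpl had no entry. The windows run from 250 bases before to 50 bases after the transcription start (RefSeq, mouse build GRCm38.p6), 5′ to 3′ on the gene's strand. Capitals mark matches to an NRF1 motif of 10 letters, to CCGGAAG (ETS) or to a YY1 motif of 10 letters, searched on both strands with no mismatch. The run of capitals in Ndufaf4 is the NRF1 motif, and the second run in Ndufaf8 is the YY1 motif. Ndufaf4 lies at chr4:24897833-24898132 (plus strand), Ndufaf8 at chr11:120098684-120098983 (plus), Uqcrh at chr4:116075021-116075320 (minus) and Ndufv3 at chr17:31519865-31520164 (plus).
Ndufaf4: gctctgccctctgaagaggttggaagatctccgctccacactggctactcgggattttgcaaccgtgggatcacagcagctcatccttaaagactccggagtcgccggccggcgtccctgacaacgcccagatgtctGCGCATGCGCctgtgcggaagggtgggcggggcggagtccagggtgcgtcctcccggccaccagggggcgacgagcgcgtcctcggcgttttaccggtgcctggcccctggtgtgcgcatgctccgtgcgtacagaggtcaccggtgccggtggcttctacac
Ndufaf8: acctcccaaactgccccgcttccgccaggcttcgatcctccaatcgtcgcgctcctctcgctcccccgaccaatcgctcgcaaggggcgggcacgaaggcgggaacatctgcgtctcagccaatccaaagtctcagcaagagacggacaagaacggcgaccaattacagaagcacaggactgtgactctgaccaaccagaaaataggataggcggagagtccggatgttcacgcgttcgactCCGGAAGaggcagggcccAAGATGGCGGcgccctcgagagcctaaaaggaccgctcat
Uqcrh: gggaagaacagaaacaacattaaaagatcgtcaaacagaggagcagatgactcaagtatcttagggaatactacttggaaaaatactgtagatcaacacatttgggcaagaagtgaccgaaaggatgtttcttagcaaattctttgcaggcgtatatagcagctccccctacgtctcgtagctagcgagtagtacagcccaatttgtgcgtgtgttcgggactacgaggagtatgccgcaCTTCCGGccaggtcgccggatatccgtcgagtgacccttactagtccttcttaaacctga
Ndufv3: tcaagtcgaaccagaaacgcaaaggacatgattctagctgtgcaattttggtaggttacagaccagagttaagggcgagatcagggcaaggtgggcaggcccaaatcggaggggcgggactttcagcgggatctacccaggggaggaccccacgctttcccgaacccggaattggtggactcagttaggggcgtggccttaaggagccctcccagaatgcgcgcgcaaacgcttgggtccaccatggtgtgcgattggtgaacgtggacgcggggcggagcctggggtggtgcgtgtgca
Ndufaf4, an assembly factor gene that rose, held the NRF1 letters at base 138 of the window. Ndufaf8, another assembly factor gene, held the ETS letters at base 243 and the YY1 letters at base 261, with no overlap. Uqcrh held the ETS letters on the opposite strand at base 241, and Ndufv3 held none of the 3 motifs. Among the 72 members with a window, 7 (9.72%) held the NRF1 letters, 18 (25%) the ETS letters and 6 (8.33%) the YY1 letters. Of 27025 genes with a window, 1.07%, 9.93% and 0.995% did. The letters TGATGCAA, a C/EBP-ATF site, were in 0 of 72 members and in 1.03% of all genes. A match describes these letters in this window, and no binding was measured.

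On each array 105 to 111 of the 135 member probes were detected, at a median bead signal over all probes of 86.6 to 128. The arrays lay on 6 chips. Those on chips 1 and 5 had Xist signals of 11.1 to 11.5 (log2) and those on chips 2, 3, 4 and 6 had 4.44 to 4.76, so chip batch and the sex pattern of the cells coincide, and each group had arrays in both batches. The authors' values also place the arrays in 5 sets of 4, with 1 array of each group. A fit with the set as a block stands beside the main fit below. All 6 macrophage markers with a probe, among them Csf1r, Adgre1 and Lyz2, were detected on 20 of 20 arrays. Of these, Itgam was lower in cc than in con cells by log2 -0.88 (limma, adjusted p = 0.0216). Fcgr1 was lower in CD-cc than in con cells by log2 -1.43 (limma, adjusted p = 0.0331). Mertk was lower in CD than in con cells by log2 -1.45 (adjusted p = 0.00948) and higher in CD-cc than in CD cells by log2 1.62 (adjusted p = 0.000555). Of 25 markers of other cell types with a probe, S100a8, Col1a1, Dcn and Ctsk were detected on all arrays, and 10 were detected on 0 arrays. Only these 4 and Ms4a1, Klrb1c, Col1a2 and Pdgfrb were detected on enough arrays to be compared. Of those compared, 0 differed between cc and con cells after adjustment. The largest difference was that of Ctsk (log2 1.26, limma, adjusted p = 0.17). Their part in the results was not tested.

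Signals below are normalized log2 values and differences are of group means in log2 units. A member was called where limma's Benjamini-Hochberg adjusted p over all 10018 genes was below 0.05, with n = 5 arrays per group throughout. The offset used in background correction shrinks the change of dim probes. Signals of different probes are not comparable with each other, so each member was set only against itself. Ranges over the 20 arrays differed among members with bright probes. Atp5b, the catalytic beta subunit of ATP synthase, lay between 13.27 and 13.70, and Atp5g3, which encodes the membrane ring of that enzyme, between 12.96 and 13.34. Cox4i1, the common form of a complex IV subunit, lay between 12.70 and 13.10. Ndufa13 of complex I lay between 12.63 and 13.08, and Uqcr10 of complex III between 12.06 and 12.70. Wider ranges were seen for Cox6c and Cox6a1 of complex IV, from 10.69 to 11.96 and from 10.51 to 11.68. The median SD within groups was 0.161 for the 79 members and 0.258 for all genes, and the median level was 10.2 against 7.35.

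The comparison of cc with con cells asks what crystals did to the chain. Most members moved little, and a few moved clearly in opposite directions. Cox6a2, Ndufaf4 and Uqcrq rose, and Uqcrh, Ndufv3 and Ndufa2 fell, which is 6 of 79 members (3 higher, 3 lower). Of all genes, 17.5% were called in this comparison. The median change was -0.06 for the members and -0.02 for all genes, and 51 members (64.6%) lay below 0, against 52.7% of all genes. The 95% interval of the change lay wholly within 0.5 log2 units of 0 for 56 members (70.9%) and for 39.8% of all genes. With the set as a block, 10 members were called (3 higher, 7 lower, against 27.7% of all genes), including all 6 above. The calls of falls depended on the scaling. Under scale normalization 3 members were called higher and 0 lower, the split over all genes was 423 higher and 230 lower in place of 851 and 899, and the members' median was 0.03. From the authors' table with the set as a block, 5 members were called higher and 14 lower. The share of all genes called in that fit is not given here, so this count cannot be set against other genes.

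**Figure D1:**
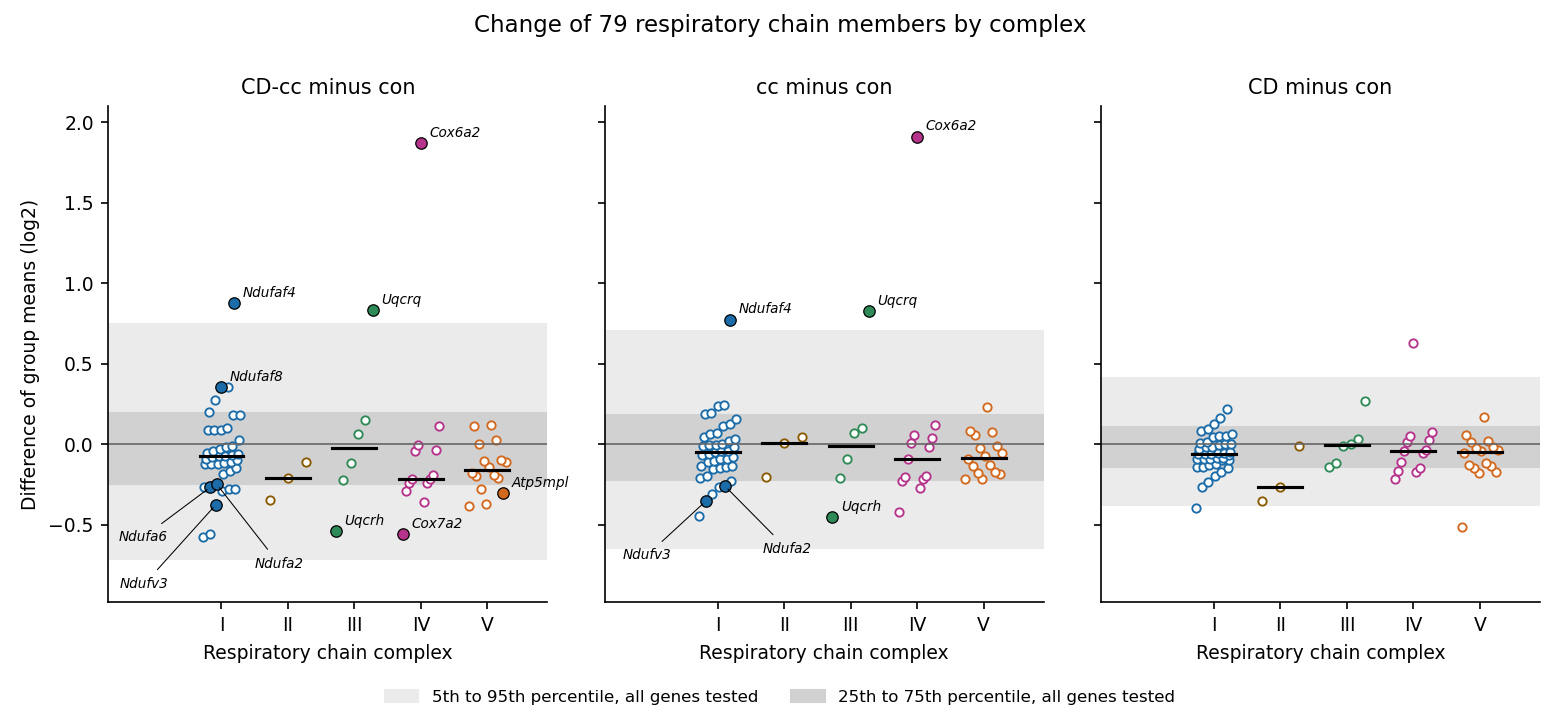
Difference of group means (log2) of the 79 tested members by complex, for CD-cc, cc and CD cells, each against con cells. Each circle is 1 gene, filled where called, the black line is the median of the complex, and the grey bands span the 5th to 95th and 25th to 75th percentiles of all 10018 genes. Cox6a2, Ndufaf4 and Uqcrq stand above the bands in CD-cc and cc cells, and the complex medians over the 3 panels lie between -0.27 and 0.005.

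The comparison of CD-cc with con cells gave a similar picture with more calls, and it shares its con arrays with the comparison of cc cells. Here 4 members rose (Cox6a2, Ndufaf4, Uqcrq and Ndufaf8) and 6 fell (Uqcrh, Ndufv3, Ndufa2, Ndufa6, Cox7a2 and Atp5mpl), 10 of 79 against 20.2% of all genes. The members' median was -0.11, that of all genes -0.03, and 59 members (74.7%) lay below 0, against 53.5% of all genes. Under scale normalization 3 members were called higher and 0 lower, and of all genes 435 higher and 386 lower. With the set as a block 15 members were called (5 higher, 10 lower, against 31.8% of all genes). The block added Ndufab1, the mitochondrial acyl carrier protein, among those higher, and Uqcr11, Atp5h, Ndufb5 and Ndufb9 among those lower.

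Complex I, the NADH dehydrogenase, has core subunits, some of which carry the redox centres, accessory subunits, and assembly factors that are not part of the finished enzyme. Of its 41 tested members, 3 were called in cc cells (1 higher, 2 lower) and 5 in CD-cc cells (2 higher, 3 lower), with medians of -0.05 and -0.07, where 17.5% of all genes were called in cc and 20.2% in CD-cc cells. None of the 5 tested core subunits (Ndufs3, Ndufs7, Ndufs8, Ndufv1 and Ndufv2) was called in either comparison, and their changes in cc cells lay between -0.11 and 0.02, each with a 95% interval within 0.5 log2 units of 0. Without the set block, the genes that rose were 2 of 7 tested assembly factors and those that fell 3 of 28 tested accessory subunits. This division did not hold with the set as a block, where the accessory subunit Ndufab1 was called higher in CD-cc cells and the assembly factor Ndufaf7 lower in cc cells. A further probe of Ndufab1 was called higher in CD-cc cells without the block too (log2 0.35, limma, adjusted p over all detected probes 0.026).

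Ndufaf4, which helps to build an early part of complex I, had signals of 9.42, 9.35, 8.92, 9.34 and 9.54 on the CD-cc arrays. The cc arrays had 9.35, 9.04, 9.20, 9.11 and 9.36. The CD arrays had 9.21, 8.16, 8.66, 8.11 and 9.14, and the con arrays 8.62, 8.56, 8.66, 7.91 and 8.43. Every CD-cc and cc array lay above every con array, while the CD arrays were split, 2 of them as high as crystal-loaded cells. Ndufaf4 was 1.84-fold higher in CD-cc than in con cells (log2 0.88 ± 0.199 SE, adjusted p = 0.00393) and 1.71-fold higher in cc than in con cells (log2 0.78 ± 0.199, adjusted p = 0.0104). A second, dimmer probe gave log2 0.40 in both comparisons and was not called (adjusted p over all detected probes 0.225 in CD-cc and 0.248 in cc cells).

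Ndufaf8, a partner of another assembly factor, stood apart in CD-cc cells, with 7.04, 7.16, 7.02, 6.92 and 7.02. Its cc arrays had 6.70, 6.69, 6.70, 6.82 and 6.65, its CD arrays 6.90, 6.88, 6.87, 6.69 and 6.67, and its con arrays 6.92, 6.36, 6.66, 6.74 and 6.71. The CD-cc arrays lay above all cc and CD arrays, and 1 con array reached the lowest of them. The gene rose 1.28-fold in CD-cc against con cells (log2 0.35 ± 0.0984 SE, adjusted p = 0.0148). Against cc cells the difference was of like size (log2 0.32) but did not pass (adjusted p = 0.287, and 0.0984 with the set block).

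Ndufv3, an accessory subunit of the part that binds NADH, had 10.997, 10.89, 11.16, 10.89 and 11.15 in CD-cc cells and 10.87, 10.99, 11.17, 11.11 and 11.06 in cc cells. It had 11.16, 11.41, 11.33, 11.41 and 11.01 in CD cells, against 11.45, 11.29, 11.24, 11.49 and 11.51 in con cells. All 10 crystal-loaded arrays lay below all con arrays. It fell by 0.38 log2 units in CD-cc cells (SE 0.103, adjusted p = 0.0133) and by 0.35 in cc cells (SE 0.103, adjusted p = 0.0213). The call in cc cells was lost without cc replicate 1 (adjusted p = 0.0646), con replicate 4 or con replicate 5. Its 2 other detected probes gave -0.25 and 0.05 in CD-cc cells and -0.25 and -0.01 in cc cells, against con cells.

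Ndufa2, a small accessory subunit of the matrix arm, had 11.58, 11.48, 11.55, 11.51 and 11.47 in CD-cc cells and 11.38, 11.63, 11.48, 11.52 and 11.53 in cc cells. The CD arrays had 11.63, 11.68, 11.73, 11.58 and 11.62, and the con arrays 11.80, 11.77, 11.68, 11.78 and 11.81. Crystal-loaded arrays lay below con arrays without overlap. Ndufa2 fell by 0.25 log2 units in CD-cc cells (SE 0.0758, adjusted p = 0.024) and by a like amount in cc cells (log2 -0.26 ± 0.0758, adjusted p = 0.0214). The call in cc cells was lost without cc replicate 1 (adjusted p = 0.0649) or con replicate 5, and that in CD-cc cells without con replicate 1 or con replicate 5 (adjusted p = 0.0541). Ndufa6, another accessory subunit, passed in CD-cc cells (log2 -0.27 ± 0.0928, adjusted p = 0.0476), in 4 of 20 fits that each left out 1 array, and had -0.23 in cc cells (adjusted p = 0.103). Ndufa7 and Ndufaf7 were lower in cc cells with the set as a block but not without it (log2 -0.27 and -0.44, set-block adjusted p = 0.0435 and 0.0376).

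**Figure D2:**
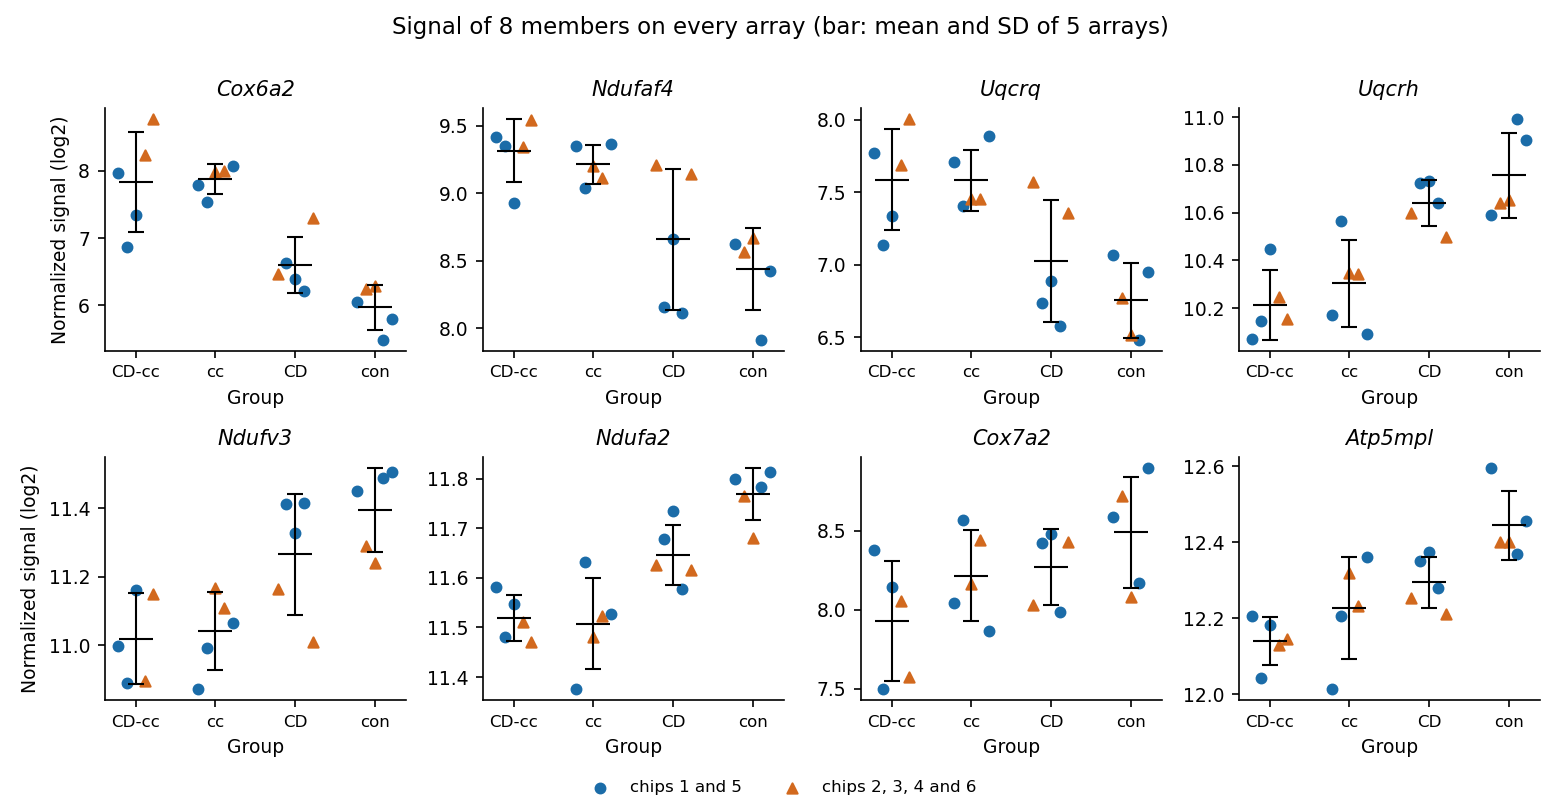
Normalized signal (log2) of 8 members on each of 20 arrays, in CD-cc, cc, CD and con cells. Blue circles are arrays of chips 1 and 5, orange triangles arrays of the other chips, and bars give mean and SD of 5 arrays. For Cox6a2, the cc arrays lie between 7.53 and 8.08 and the con arrays between 5.48 and 6.28.

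Complex II gave no call in any comparison. Its tested members were Sdhb, the iron-sulphur subunit, and the membrane anchors Sdhc and Sdhd. In cc cells their changes were 0.05 (95% interval -0.20 to 0.29), -0.20 (-0.44 to 0.03) and 0.01 (-0.64 to 0.65) against con cells. Sdhb had 10.00, 9.98, 9.86, 9.75 and 9.54 in CD-cc cells, 10.09, 10.12, 9.74, 9.98 and 9.99 in cc cells, 9.54, 9.76, 9.91, 9.70 and 9.47 in CD cells, and 10.08, 9.72, 9.78, 10.05 and 10.06 in con cells. The CD arrays were the lowest on average but overlapped the con arrays (log2 -0.27, adjusted p = 0.427, and 0.0847 with the set block). From the authors' table with the set block, Sdhb was the single member called in this comparison (log2 -0.24, adjusted p = 0.0224). The share of all genes called in that fit is not given here, so this call cannot be set against other genes. Sdhd varied widely, from 6.10 to 8.02 over the 20 arrays, and its 95% interval was the widest of the 3.

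Complex III, the cytochrome bc1 complex, held members that went opposite ways. Uqcrh, the hinge protein that helps cytochrome c to dock, had 10.07, 10.15, 10.45, 10.25 and 10.15 in CD-cc cells and 10.17, 10.56, 10.35, 10.35 and 10.09 in cc cells. It had 10.60, 10.72, 10.73, 10.64 and 10.50 in CD cells and 10.59, 10.64, 10.65, 10.99 and 10.90 in con cells. Each crystal-loaded array was below each con array. Uqcrh fell by 0.54 log2 units in CD-cc cells (1.46-fold lower, SE 0.11, adjusted p = 0.00174) and by 0.45 in cc cells (1.37-fold lower, SE 0.11, adjusted p = 0.00744).

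Uqcrq, a small subunit bound to cytochrome b, had 7.77, 7.13, 7.34, 7.69 and 8.005 in CD-cc cells and 7.71, 7.40, 7.45, 7.45 and 7.89 in cc cells. Its CD arrays had 7.57, 6.74, 6.88, 6.57 and 7.35, and its con arrays 7.07, 6.77, 6.51, 6.48 and 6.95. CD-cc and cc arrays were all above the con arrays, and 2 CD arrays were too. The rise was 1.78-fold in CD-cc cells (log2 0.83 ± 0.194 SE, adjusted p = 0.00465) and 1.77-fold in cc cells (log2 0.83 ± 0.194, adjusted p = 0.00568). This probe was designed on a cDNA clone record. The probe designed on the RefSeq transcript of Uqcrq was detected on 0 arrays, so whether the signal is that of the subunit's own transcript was not tested. The core proteins Uqcrc1 and Uqcrc2 were not called in any of the comparisons, with 0.07 and 0.10 in cc cells.

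Complex IV, cytochrome c oxidase, has subunits with common forms and forms typical of heart, skeletal muscle, lung or testis. Of 13 tested members, 1 was called in cc cells and 2 in CD-cc cells, against 17.5% and 20.2% of all genes. Cox6a2, the heart and skeletal muscle form of subunit 6a, had 7.97, 6.87, 7.34, 8.24 and 8.77 in CD-cc cells, and 7.80, 7.53, 7.99, 7.99 and 8.08 in cc cells. The CD arrays had 6.47, 6.62, 6.38, 6.22 and 7.30, and the con arrays 6.04, 6.24, 6.28, 5.48 and 5.78. All crystal-loaded arrays lay above all con arrays, while the CD arrays overlapped both, with 1 CD array (7.30) above the lowest CD-cc array (6.87) and 1 (6.22) below the highest con array (6.28). The probe was detected on all 20 arrays. Cox6a2 rose 3.66-fold in CD-cc cells (log2 1.87 ± 0.277 SE, adjusted p = 0.000156) and 3.76-fold in cc cells (log2 1.91 ± 0.277, 95% interval 1.33 to 2.49, adjusted p = 0.000118). Within chips 1 and 5 the values were 1.62 and 2.03, and within the other chips 2.25 and 1.73.

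Cox6a1, the common form of that subunit, was not called in cc cells (log2 -0.09, 95% interval -0.62 to 0.43) or in CD-cc cells (0.11, -0.41 to 0.64). Cox7a2, the common form of subunit 7a, fell by 0.56 log2 units in CD-cc cells (SE 0.193, adjusted p = 0.0465) and had -0.27 in cc cells. Its CD-cc arrays had 8.38, 7.50, 8.14, 8.06 and 7.57 and its con arrays 8.59, 8.72, 8.08, 8.17 and 8.89. The groups overlapped, and the fall of Cox7a2 passed in 9 of 20 fits that each left out 1 array. Cox7a1, the heart and muscle form, had -0.42 in cc cells (adjusted p = 0.136, and 0.0276 with the set block). Of the other common forms, Cox4i1 had 0.04 and Cox6b1 -0.19 in cc cells, neither called. Cox6b2, typical of testis, was detected on 5 arrays. Ndufa4, which is named for complex I but belongs to complex IV, had -0.23 (adjusted p = 0.113). Cox8a and Ndufa4l2 were not analysed here.

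Of complex V, 0 of 16 members were called in cc cells and 1 in CD-cc cells, each compared with con cells, while 17.5% and 20.2% of all genes were called. Its medians were -0.08 and -0.16. The single call was Atp5mpl, a small subunit of the membrane part. It had 12.21, 12.04, 12.18, 12.13 and 12.14 in CD-cc cells and 12.01, 12.21, 12.32, 12.23 and 12.36 in cc cells, against 12.25, 12.35, 12.38, 12.28 and 12.21 in CD cells and 12.59, 12.40, 12.40, 12.37 and 12.46 in con cells. CD-cc arrays lay below the con arrays without overlap. It fell by 0.30 log2 units (SE 0.0847, adjusted p = 0.0151), or 1.23-fold lower. In cc cells the value was log2 -0.22 (adjusted p = 0.0867, and 0.046 with the set block). By position in the enzyme, the 5 tested subunits of the F1 head and central stalk had a median of -0.08 in cc cells, the 4 of the peripheral stalk -0.17 and the 7 of the membrane part -0.02.

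**Figure D3:**
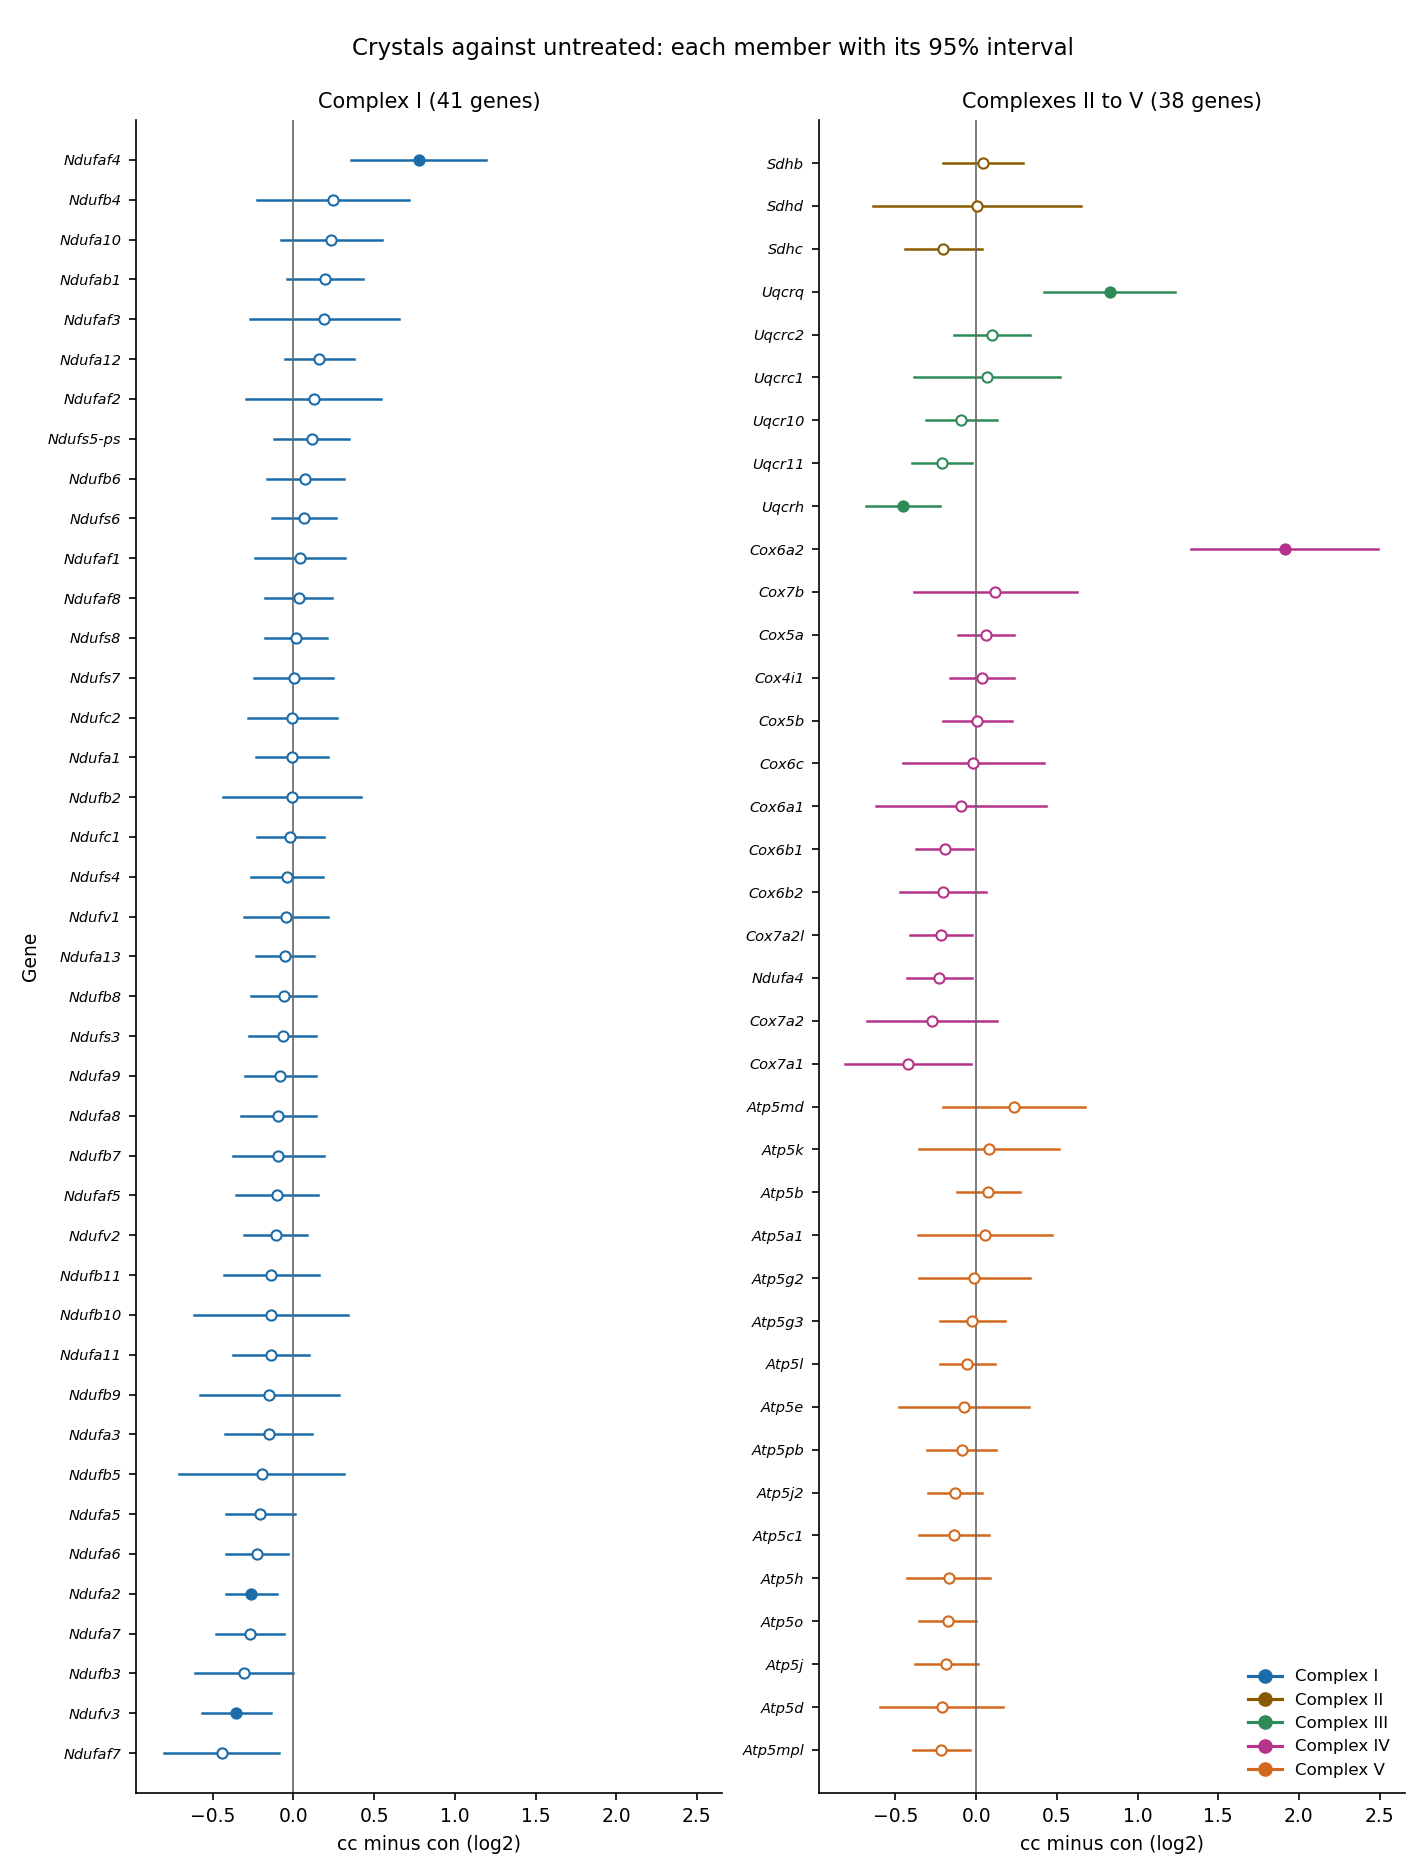
Difference of cc and con means (log2) of each tested member with its 95% interval, complex I on the left and complexes II to V on the right, sorted within each complex and filled where called. Of the 79 intervals, 56 lie wholly within 0.5 of 0.

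The comparison of CD with con cells asks what cyclodextrin did without crystals, and 0 of 79 members were called (limma, against 1.13% of all genes). At an unadjusted p below 0.05, 5 members passed. With the set as a block the count was also 0, against 4.12% of all genes. The members' median was -0.06, that of all genes -0.02, and 55 members (69.6%) lay below 0, against 53.9% of all genes. Changes ran from -0.52 for Atp5md, a small complex V subunit (adjusted p = 0.344), to 0.63 for Cox6a2 (adjusted p = 0.408). Behind Cox6a2 came Uqcrq (0.27) and Ndufaf4 (0.22), and beside Atp5md the lowest were Ndufb9 (-0.40) and Sdhd (-0.35). Within chips 2, 3, 4 and 6 alone, Uqcrq (log2 0.82, adjusted p = 0.0182) and Ndufaf4 (0.56, adjusted p = 0.0461) were called higher. Within chips 1 and 5 they had -0.10 and -0.01. The share of all genes called within chips 2, 3, 4 and 6 alone is not given here, so these calls cannot be set against other genes. A test of the difference between the batches passed for no member in any comparison of groups. The share of all genes that passed it is not given here. With few arrays per group in each batch, this does not show that the batches agree.

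CD-cc against cc cells asks what cyclodextrin did to cells that held crystals. No member was called, and 0% of all genes were (limma, 3 members and 815 genes at an unadjusted p below 0.05). With the set as a block, 1.8% of all genes were called, and Atp5md was the single member among them. Atp5md had 5.83, 5.34, 5.68, 5.49 and 4.83 in CD-cc cells and 5.95, 6.45, 5.67, 6.25 and 5.96 in cc cells. These ranges overlapped (log2 -0.62 ± 0.21 SE, adjusted p = 0.379, and 0.0425 with the set block). The next lowest were Ndufb9 (-0.43) and Atp5a1 (-0.42), and the highest were Ndufaf8 (0.32), Ndufa11 (0.23) and Cox6a1 (0.20). Cox6a2 had -0.04 with a 95% interval from -0.62 to 0.54, Uqcrq 0.005 (-0.40 to 0.41) and Uqcrh -0.09 (-0.32 to 0.14). The interval lay within 0.5 log2 units of 0 for 59 members (74.7%) and 54.9% of all genes.

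CD-cc against CD cells shows crystals in cells that all received cyclodextrin and carry the same age label. Here 3 members were called, against 9.2% of all genes. Cox6a2 rose 2.36-fold (log2 1.24 ± 0.277 SE, adjusted p = 0.00688) and Ndufaf4 1.58-fold (log2 0.66 ± 0.199, adjusted p = 0.043). Uqcrh fell by 0.43 log2 units (SE 0.11, adjusted p = 0.0174). All CD-cc arrays lay below all CD arrays for Uqcrh, while for Ndufaf4 and Cox6a2 the groups overlapped. Without CD replicate 2, Cox6a2 was the 1 member called. Ndufaf4 passed in 8 of 20 fits that each left out 1 array. With the set as a block, 5 were called (3 higher, 2 lower, against 18.5% of all genes), with Uqcrq (log2 0.56, set-block adjusted p = 0.0313) and Uqcr11, a small complex III subunit (log2 -0.26, set-block adjusted p = 0.0363), added. Within chips 1 and 5 Ndufaf4 had 0.92 and within the other chips 0.27.

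The interaction asks whether the change with cyclodextrin differed between cells with and without crystals. Of all genes 0.0399% were called and 0 of 79 members, and at an unadjusted p below 0.05 no member passed either. With the set as a block 0.14% of all genes and again 0 members were called. The largest values were -0.67 for Cox6a2 (95% interval -1.49 to 0.15) and 0.32 for Ndufa11, an accessory subunit of complex I (-0.01 to 0.65). Next came Uqcrq (-0.26) and Ndufb4 (-0.37) below 0, and Ndufaf7 (0.26) and Ndufb7 (0.24) above.

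Level by complex was followed on each array as the median, over the members of a complex, of the array's value minus the member's mean over the con arrays. Complex IV lay between -0.22 and -0.13 on the CD-cc arrays, between -0.21 and 0.02 on the cc arrays, between -0.13 and 0.08 on the CD arrays and between -0.04 and 0.07 on the con arrays. The CD-cc and con arrays did not overlap. For complex V the ranges were -0.22 to -0.07 in CD-cc, -0.13 to -0.03 in cc, -0.14 to 0.02 in CD and -0.03 to 0.08 in con cells, again with CD-cc below con. Complexes I, II and III overlapped between all groups, and complex II, with 3 genes, had the widest range, from -0.47 to 0.19. Over all genes the same measure lay between -0.07 and 0.03. It lay between -0.074 and -0.012 on the CD-cc arrays and between -0.014 and 0.033 on the con arrays. These ranges overlapped only slightly, so the near separation of CD-cc from con arrays was not particular to complexes IV and V. The shifts by complex are small, and the CD-cc medians of complexes IV and V differ from those of con cells by under 0.2 log2 units.

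**Figure D4:**
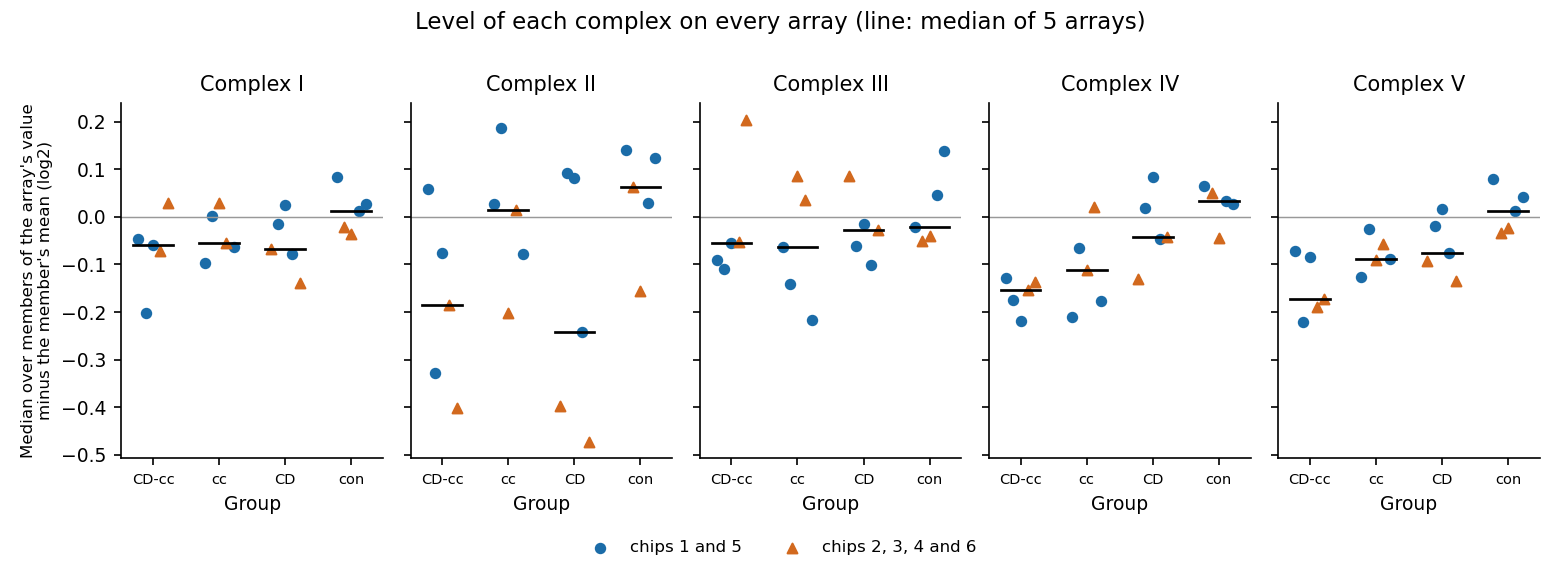
Median over the members of each complex of the array's value minus the member's mean over the con arrays (log2), for every array of the CD-cc, cc, CD and con groups. Circles are chips 1 and 5, triangles the other chips, lines the median of 5 arrays. In complexes IV and V all CD-cc arrays lie below all con arrays. Over all genes, not drawn, the CD-cc arrays lie between -0.074 and -0.012 and the con arrays between -0.014 and 0.033.

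Members also differed between the chip batches. With the group in the model, 15 of 79 members (19%) differed between chips 1 and 5 and the other chips, against 26.1% of all genes, 10 higher and 5 lower on chips 1 and 5. Sdhd (log2 0.57, adjusted p = 0.0254) and Ndufb10 (0.51, adjusted p = 0.00311) were higher there. Cox6a2 (-0.57, adjusted p = 0.01) and Cox6a1 (-0.43, adjusted p = 0.0477) were lower. Every member called in a comparison of groups moved the same way in 5 of 5 sets. The sets hold the same arrays on which these members were called, so this is not independent support.

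Probes of 1 gene did not always move together. Of 25 members with more than 1 detected probe, 10 had probes of opposite sign in cc against con cells, and 8 in CD-cc against con cells. The widest spread in cc cells was for Atp5a1, the alpha subunit of ATP synthase, from -0.38 to 0.05, with the brighter probe at 0.05. The 4 probes of Atp5pb, a peripheral stalk subunit, ran from -0.21 to 0.21, and the 3 of Sdhb from -0.13 to 0.10. Atp5o, Cox5b, Ndufaf5, Ndufb10, Ndufc2, Ndufs4 and Ndufs6 were the others, with spreads of 0.07 to 0.29. In CD-cc cells Ndufab1 had probes from -0.31 to 0.35, with the brightest at 0.27. The probe at 0.35 passed (limma, adjusted p over all detected probes 0.026), and also against CD cells (log2 0.36, adjusted p = 0.0405). A dimmer Ndufb8 probe passed in CD-cc against con cells (log2 -0.615, adjusted p over all detected probes 0.00235). The brighter Ndufb8 probe, which stood for the gene, had -0.12 and was not called. Many members have near-identical copies or pseudogenes, and Ndufs5-ps, annotated as a pseudogene, was kept as a member. How far probes read such copies was not tested.

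Other mitochondrial genes were set beside the members, against the same 17.5% of all genes called in cc and 20.2% in CD-cc cells. In the list of mitochondrial chaperones and proteases, 3 of 7 tested genes rose in cc against con cells and 0 fell. These were Hspd1, the chaperonin HSP60 (1.98-fold, log2 0.99, adjusted p = 0.000112), Hspa9, which pulls proteins into the matrix (1.88-fold, log2 0.91, adjusted p = 0.000348), and the protease gene Clpp (log2 0.50). The list's median was 0.51. In CD-cc cells 4 of 7 rose against con cells, and 3 rose against CD cells, where 9.2% of all genes were called. Of 11 regulators of mitochondrial biogenesis, 4 rose in cc cells and 0 fell. They were led by the coactivator genes Ppargc1b (2.13-fold, log2 1.09, adjusted p = 0.00371) and Pprc1 (1.95-fold, log2 0.96, adjusted p = 0.00626), with Gabpb1, a GABP subunit, and Twnk, the helicase of mitochondrial DNA. The other 7 were not called, and the list's median was -0.0004 in cc cells and 0.15 in CD-cc cells. In CD-cc cells 3 of 11 rose.

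Cycs, cytochrome c itself, rose in cc (log2 0.42, adjusted p = 0.0116) and in CD-cc cells (log2 0.42, adjusted p = 0.00922), while Cyc1, the cytochrome c1 gene, was called in neither. Of 14 genes for complex IV assembly and copper delivery, Lrpprc, which steadies mitochondrial mRNA (log2 0.69, adjusted p = 0.00704), and Cox10, which makes haem A precursors (log2 0.40, adjusted p = 0.0392), rose in cc cells. Foxred1, a complex I assembly gene, fell by 0.35 (adjusted p = 0.0264) in cc cells, 1 of 5 tested. In CD-cc cells Sdhaf4 of complex II assembly fell by 0.45 (adjusted p = 0.0262, 1 of 4) and Idh3g of the citric acid cycle by 0.34 (adjusted p = 0.0236, 1 of 11). None was called in cc or CD-cc cells against con cells for complex III assembly (4 tested), complex V assembly (3) or the carriers and channels of ATP exchange (5). In CD against con cells 0 genes of any of these lists were called.

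**Figure D5:**
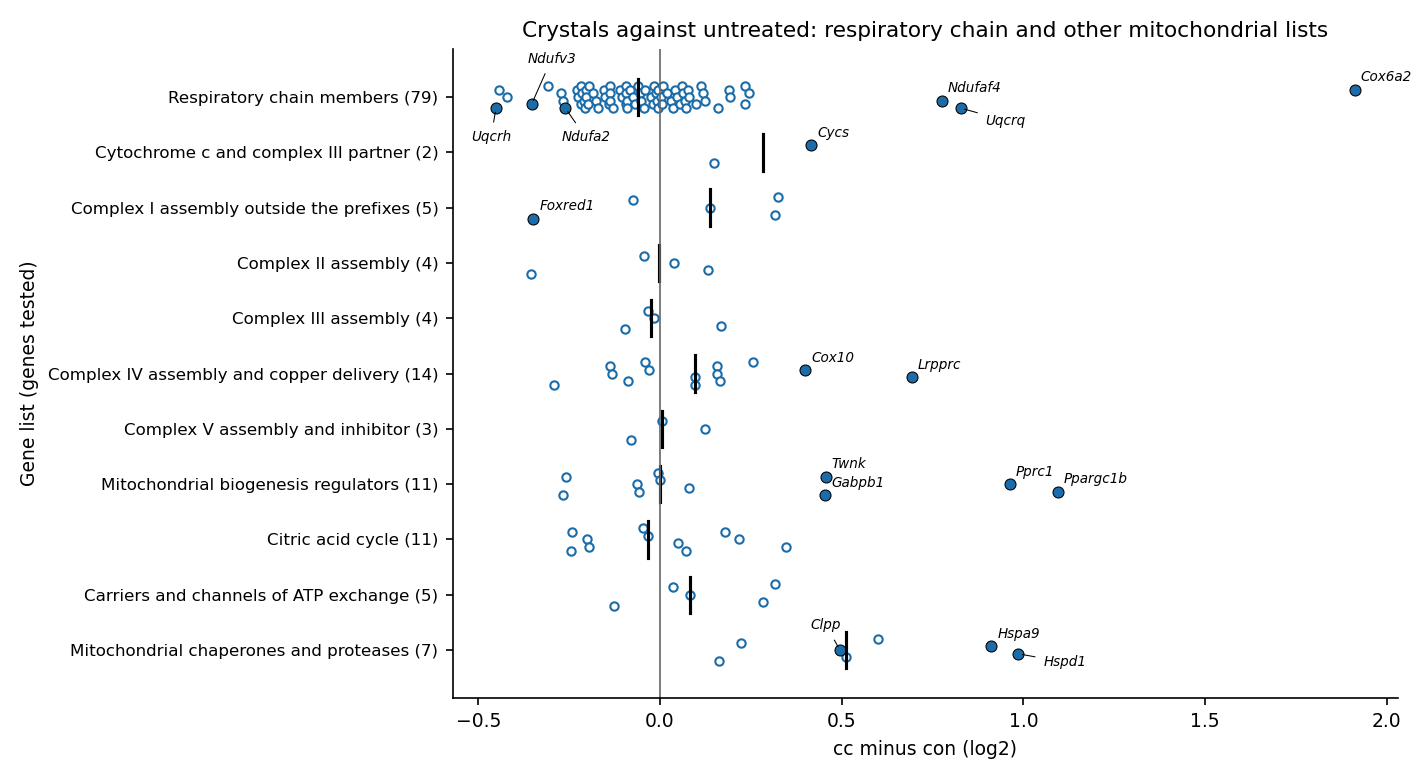
Difference of cc and con means (log2) of the members and of the genes of 10 other mitochondrial lists, 1 circle per gene, filled where called, with the list's median as a line. The median of the members is -0.06 and that of the chaperones and proteases 0.51.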

How the data were processed

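Gene expression was measured on Illumina mouse bead arrays of biotinylated cRNA, 20 arrays in 4 groups of 5 taken from the sample titles. The deposited signal file holds, per the file headers and values, an average bead intensity for 45281 probes, not normalized, and a detection p-value per probe and array, per the file headers. The authors' deposited value table is in log2 units. It was recomputed as log2 signals, quantile normalized, with the means of 5 sets of 4 arrays made equal for every probe (largest difference 0.0185), and its column medians were 6.71 to 6.72. Partek is named per the submitters' processing notes, with its steps not given in the sources used here. Gene symbols came from the platform annotation: 34885 probes had 1 symbol, 18 several and 10378 none.

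In R 4.3.3 with limma 3.58.1, bead intensities were background corrected by normexp with controls inferred from the detection p-values (offset 16), quantile normalized and put on the log2 scale. Probes with 1 symbol and a detection p below 0.05 on 5 or more arrays were kept, and the probe of highest mean stood for its gene. lmFit, contrasts.fit and eBayes were run on all 20 arrays, two-sided, with Benjamini-Hochberg adjustment over 10018 genes, in a script tested on simulated data. A value after ± is the model's SE. The number of arrays limits the precision.

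Same-numbered arrays of different groups did not deviate together (r over 0.1 in 8 of 30 pairs), so the numbers were not used to pair them. Arrays of 1 set were used as a block in an alternative, and chip, chip batch, background, normalization, filter, probe choice and left-out arrays were varied too. Named genes were, per complex, the 2 of highest and 1 of lowest level, up to 4 called members of largest change per comparison, the 3 largest changes either way where fewer than 6 were called, complex II and isoform pairs, members with disagreeing probes, and 2 called genes of each other list. Genes beyond these were named after their values were seen. The members, lists, sets and rules were chosen with earlier results of these data known.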

Additional observations from a re-analysis of the deposited data

Results flagged for a closer look

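Among 164 groups of 5 values looked at (the named members and the complex medians in each group), 4 held an array far from the other 4, where chance alone gives about 1 in 20 such groups. Atp5md was 5.965 (log2) on CD replicate 2, with the other CD arrays between 5.034 and 5.297. Cox6b2 was 4.803 on CD-cc replicate 4, against 4.434 to 4.461 on the other CD-cc arrays, all close to background. Uqcr10 was 12.21 on CD replicate 5, against 12.35 to 12.39. The median of complex III was 0.2046 on CD-cc replicate 5, against -0.1101 to -0.05286 on the other CD-cc arrays. No member's change differed between chip batches after adjustment, in a test with few arrays per group in each batch that does not show agreement.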

How the results depend on the processing

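Counts of called members are given as higher and lower together. The share of all genes called is not given beside each setting here. The counts therefore do not show whether members responded more or less often than other genes. Crystals against untreated gave 6 in the model as reported, 13 without background correction, 3 under scale normalization, 19 from the authors' table with the set as a block, 10 with the set as a block and 2 on chips 2, 3, 4 and 6 alone. Cyclodextrin against untreated gave 0, and 1 from the authors' table and 2 on chips 2, 3, 4 and 6 alone. Crystals then cyclodextrin against untreated gave 10, and 3 under scale normalization, 20 from the authors' table, 4 with the chip as a fixed block, 5 on chips 1 and 5, 3 on the other chips and 6 with only the 2 groups in the fit. Crystals then cyclodextrin against crystals gave 0, and 1 with the set as a block. Crystals then cyclodextrin against cyclodextrin gave 3, and 5 without background correction, 1 under scale normalization, 10 from the authors' table, 1 with the chip as a fixed block, 5 with the set as a block and 1 on chips 2, 3, 4 and 6 alone. Subsets of chips hold fewer arrays. For the other settings the cause was not tested. Leaving out each array in turn gave 4 to 8, 0 to 0, 7 to 13, 0 to 0, 1 to 4 and, for the interaction, 0 to 0 calls, in the order above. The replicate number as a block gave 6, 0, 9, 0, 4 and 0 (replicate block); 4 of 20 arrays correlated best with an array of their own number and 17 with one of their own set. Of the 15 alternatives besides leaving out arrays, the fit with only the groups compared was not run for the interaction. The interaction gave 0 under all the others.

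No named change of a called member reversed under any of the 35 alternatives. Cox6a2 was called under all 35 in each of the 3 comparisons in which it was called. Uqcrq in cc against con cells was called under 35, Ndufaf4 under 34, Uqcrh under 33, Ndufv3 under 30 and Ndufa2 under 28, with adjusted p from 4.881e-06 for Cox6a2 to 0.7772 for Ndufv3. In CD-cc against con cells Ndufa6 was called under 10 and Cox7a2 under 15. Ndufaf4 in CD-cc against CD cells was called under 17. The median change of the members in cc against con cells ran from -0.12 on chips 1 and 5 to 0.03 under scale normalization. Cox6b2 and Ndufb11, each detected on 5 arrays, lie close to background, where a change is understated.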

Other observations

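The 7 members whose promoter window holds the NRF1 letters were Atp5g2, Atp5k, Cox6a1, Ndufa11, Ndufaf4, Ndufaf5 and Uqcrc1. Their median change was 0.11 in CD-cc against con cells and -0.01 in cc against con cells, and for the 61 tested members with a window but without these letters it was -0.12 and -0.08. In each comparison 1 of the 7, Ndufaf4, was called, against 20.2% of all genes in CD-cc and 17.5% in cc cells. For the other motifs the gap was smaller in CD-cc against con cells. The median was -0.07 in the 6 members with the YY1 letters and -0.11 in the 62 tested without them, and -0.11 in the 18 with the ETS letters and -0.10 in the 50 without. These values are given as a description, with no test.

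Signals of the Cox6a1 probe were split at their widest gap, a rule that always gives 2 ranges, after the values were examined. The probe lay between 10.51 and 10.79 (log2) on 6 arrays and between 11.01 and 11.68 on the other 14. The 6 were CD-cc replicate 1, cc replicates 2 and 5, CD replicates 2 and 3 and con replicate 1. They include all 4 arrays of 1 set, and all lie on chips 1 and 5. The pattern was not particular to Cox6a1. The same 6 arrays were the 6 lowest for Uqcrc1 (9.71 to 9.996, the others 10.12 or more). They were also the 6 lowest for Atp5d (9.40 to 9.73, the others 9.90 or more). The cause was not tested.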
